A study of Homo sapiens with 22 samples.

Results

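CTCF binding at 72 h of PMA was compared with binding at 6 h in K562, a human leukemia cell line with red cell features. The members were all regions of the CTCF count table on chromosomes 1 to 22 and X, 65346 of the table's 66168 regions, in 4 of the series' 22 libraries. Both groups were wild-type K562 cells in 25 nM PMA, a phorbol ester that moves the line toward a megakaryocyte-like state, and were fixed with 1% formaldehyde. One group received PMA for 6 h (2 libraries) and the other for 72 h (2 libraries), and 2 libraries at 0 h served as a reference. The libraries are taken to be CUT&RUN from the abbreviation in their titles, an assay in which an antibody directs a nuclease to release the DNA beside the bound protein. The series concerns how chromatin loops change during differentiation, and the comparison covers the late step, from the early response to the differentiated state.

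CTCF is a zinc finger protein that binds a long DNA motif and blocks the cohesin ring, whose kleisin subunit is Rad21, as cohesin extrudes chromatin into loops. Many CTCF sites are shared among cell types and mark the bases of loops and the borders of contact domains. Jun is a subunit of AP-1, the transcription factor that phorbol esters activate through protein kinase C, and H3K27ac is an acetylation of histone H3 at active enhancers and promoters.

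Promoters with a CTCF region and a core of the CTCF motif are printed as examples. The core searched was CCNNNAGNNGGC on both strands, and it was found in 10.6% of 34961 RefSeq promoters (GRCh38.p14, 250 bases before to 50 after the start). Among 1180 promoters under a region with a CTCF peak in all 6 libraries the share was 30.8%, and among 26813 with no tested CTCF region it was 8.20%. The 72 bases around the match are printed 5′ to 3′ on the gene's strand, with the match in capitals. The first 4 promoters lie under regions that passed the test at 72 h against 6 h, and the last 2 are strong sites that did not. SCIRT (chr6:44074688-44074759, minus strand) fell, while AMN1 (chr12:31729149-31729220, minus), CARS2 (chr13:110706176-110706247, minus) and LYL1 (chr19:13102922-13102993, minus) rose. YDJC (chr22:21630114-21630185, minus) and PRAME (chr22:22559325-22559396, minus) did not pass. The regions at SCIRT, YDJC and PRAME had a CTCF peak in all 6 libraries. Those at AMN1 and LYL1 had a peak in 1 library and that at CARS2 in 2, all at 72 h.
SCIRT: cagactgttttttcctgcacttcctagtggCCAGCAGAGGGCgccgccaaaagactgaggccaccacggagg
AMN1: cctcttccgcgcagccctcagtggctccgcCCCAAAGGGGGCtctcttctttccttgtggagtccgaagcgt
CARS2: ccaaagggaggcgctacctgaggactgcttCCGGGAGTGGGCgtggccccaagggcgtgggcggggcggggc
LYL1: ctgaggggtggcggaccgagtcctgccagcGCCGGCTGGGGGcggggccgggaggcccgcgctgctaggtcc
YDJC: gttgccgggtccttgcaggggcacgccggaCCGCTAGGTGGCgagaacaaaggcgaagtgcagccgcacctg
PRAME: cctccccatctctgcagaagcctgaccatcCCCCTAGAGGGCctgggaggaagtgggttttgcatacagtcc
Without replicate 1 at 72 h the calls of AMN1 and CARS2 were lost (adjusted p = 0.350 and 0.187), and likewise without replicate 2 at 72 h (0.0991 and 0.105) or at 6 h (0.153 and 0.0936). The match in capitals stood on the printed strand in all but LYL1, where it was on the opposite strand. PRAME held another match, not printed, on the opposite strand (within chr22:22559269-22559340). Under regions that rose, 7 of 26 promoters held the core (26.9%), and under regions that fell, 1 of 11 did (9.09%), beside 18.4% of the 8148 promoters with any tested CTCF region. Promoters can share a region, and these 26 lay under 19 regions and the 11 under 9. The promoters of AMN1 and AMN1-AS1 hold the same match on opposite strands. AMN1 was also entered with more than 1 promoter that held a core, so the 7 promoters lay under fewer than 7 regions. A match is a description of the letters and not a measured site.

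The 6 CTCF libraries held between 2553677 and 6068421 counts in regions. At 6 h, replicate 1 stood apart. Its counts were 30.5% mitochondrial against 20.4% in replicate 2, and 18043 peaks were deposited for it against 26792. At 72 h the mitochondrial shares were 9.55% and 9.63%, and 27158 and 40805 peaks were deposited. Correlations between replicates over log2 CPM (counts scaled by library size and TMM factors) were 0.849 at 6 h and 0.917 at 72 h. Between 6 h and 72 h libraries they ran from 0.752 to 0.835. Replicate 2 at 6 h reached 0.837 with replicate 2 at 0 h. The 6 h replicates were thus little closer to each other than to some libraries of other times. Nothing in the labels says that replicates were separate cultures, so p-values measure the spread between these libraries, which may be technical. As a check of the cell line, all 7 erythroleukemia genes examined had an H3K27ac region within 1000 bp of the gene, at a median of 24.6 CPM per kb at 6 h. Of 10 genes of other lineages 5 had one, at a median of 6.03 CPM per kb.

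Most CTCF regions did not pass the test between 6 and 72 h, and those that did were mainly lower at 72 h. Of 57354 members tested by edgeR's quasi-likelihood test, 1236 had a Benjamini-Hochberg adjusted p under 0.05 (2.16%). Of these, 999 fell (1.74%) and 237 rose (0.413%). All 1236 differed at least 2-fold and had groups that did not overlap. Over all members tested, 12.4% were at least 2-fold higher and 6.42% at least 2-fold lower by group means, and 51.8% had groups that did not overlap, so neither measure alone marks a change here. The lowest adjusted p was 0.000430, and 10182 members had an unadjusted p under 0.05. The split between rises and falls depended on scaling. TMM set the median log2 fold change of members to 0.00, total counts raised it by 0.42 and gave 4012 rises and 919 falls, and factors from the regions that held a peak in all 6 libraries raised it by 0.28 and gave 278 rises and 411 falls. The total counts included the mitochondrial chromosome, at 30.5% and 20.4% of counts at 6 h against 9.55% and 9.63% at 72 h. The part of this difference in the higher median under total counts was not tested. Of the 999 falls, 812 stayed called as falls under total counts and 411 under the factors from common peaks. The library left out also moved the count. Without replicate 1 at 6 h, 1534 members rose and 2216 fell, and without replicate 1 at 72 h, 33 rose and 244 fell.

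**Figure D1:**
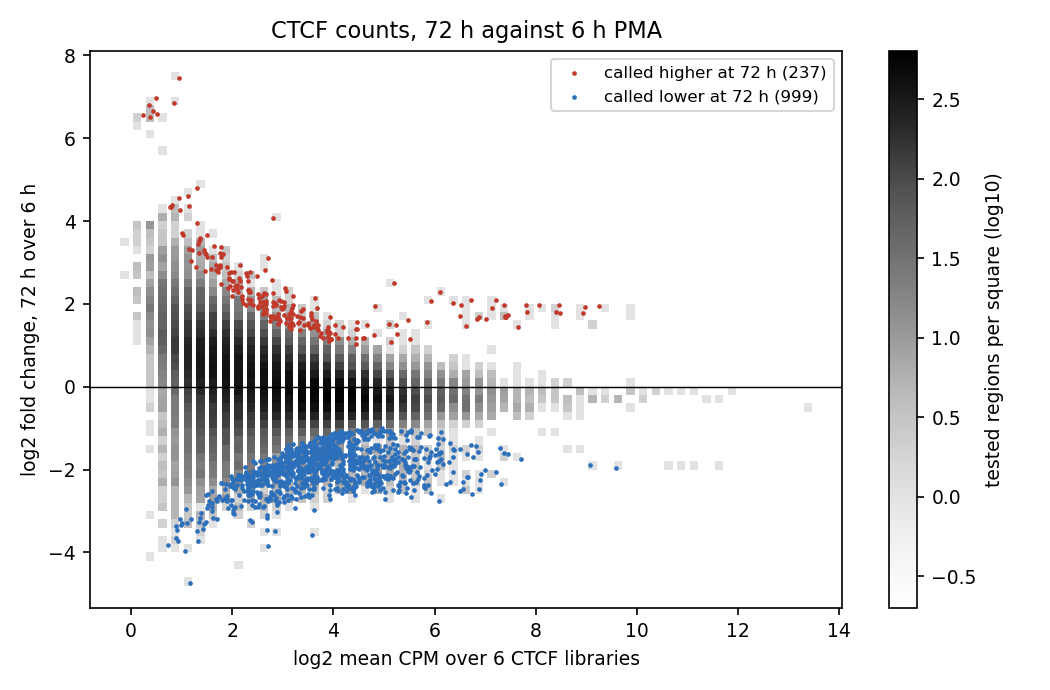
Log2 fold change at 72 h over 6 h against log2 mean CPM over the 6 CTCF libraries, for 57354 tested members. Grey squares hold tested regions on a log10 colour scale, red points are the 237 regions that rose and blue points the 999 that fell. Under TMM the cloud tilts from above 0 among weak regions to below 0 among strong ones.

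Weak and strong regions moved differently. Members were divided into 4 groups of equal size by mean CPM. The median log2 fold change was 0.58 in the weakest group, then 0.18, −0.09 and −0.24 toward the strongest. With loess offsets, which remove a trend with level, the same medians were 0.12, 0.00, −0.03 and −0.04. Under total counts they were 1.01, 0.60, 0.32 and 0.16, and with factors from common peaks 0.85, 0.45, 0.19 and 0.04, so the direction in the stronger groups turned with the scaling while the order of the groups did not. Falls were most frequent in the strongest group, with 447 of 14339 members (3.12%), and least frequent in the weakest, with 41 (0.286%). The grouping used the 6 h libraries too, so a high 6 h level moved falls toward the stronger groups. Their median CPM was 6.62 at 0 h and 7.18 at 72 h, near the 7.05 and 7.52 of all tested members. Of falls, 24.5% had a peak in all 6 libraries, against 22.1% of all tested and 76.3% of the strongest group. The part of the test's lower power at small counts was not tested. Rises were spread evenly, with 48, 71, 65 and 53 members from the weakest to the strongest group. The share of counts in regions with a peak in all 6 libraries was 58.0% and 59.3% in the 6 h libraries, then 52.9% and 52.1% in those at 72 h. The means were 58.7% ± 0.982 and 52.5% ± 0.589 (SD, n = 2). The groups did not overlap, and the exact permutation test gave 0.33, the smallest p it can give for 2 against 2.

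Peaks gave a larger set at 72 h that held most of the 6 h set. Peaks found in both replicates numbered 15234 at 6 h and 24095 at 72 h. Of those at 6 h, 13445 (88.3%) overlapped a 72 h peak, and of those at 72 h, 13444 (55.8%) overlapped a 6 h peak. When the replicate 2 peaks alone stood for 6 h, without the library with 18043 peaks, 68.8% of 6 h peaks and 75.8% of 72 h peaks were shared. When the replicate 2 peaks alone stood for 72 h, the shares were 97.7% and 36.5%. That library was also the deepest, at 6068421 counts, and the part of depth in the peak numbers was not tested. The count test was stricter than the peak lists. Among 4295 members with a peak in both 72 h libraries and none at 6 h, 114 rose. Among 272 members with a peak in both 6 h libraries and none at 72 h, 127 fell. Of 13408 members with a peak in all 4 libraries, 344 fell and 17 rose. Over all tested members 1.74% fell and 0.413% rose. The peaks came from the same libraries as the counts, so peaks at 72 h alone or at 6 h alone already favoured calls in that direction.

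By their medians, regions that fell were higher at 6 h than at 0 or 72 h. In bulk cultures, less binding in every cell and binding lost from some cells cannot be told apart. Their median CPM in replicates 1 and 2 was 22.7 and 26.9 at 6 h, 5.53 and 8.57 at 72 h, after 5.10 and 7.94 at 0 h. The 0 h mean lay below both 6 and 72 h in 541 of the 999, between them in 416 and above both in 42. A peak was present in both 6 h libraries for 71.5% of them and in no 72 h library for 37.7%. Regions that rose were low at 0 h as well as at 6 h. Their medians were 4.21 and 3.25 at 6 h, 14.3 and 13.8 at 72 h, after 4.59 and 3.97 at 0 h. The 0 h mean lay between the 6 and 72 h means in 139 of the 237 and below both in 98. At 6 h, 84.0% of them had no peak. The comparison of 72 with 6 h uses the 6 h libraries that any comparison of 6 with 0 h would use, so the 0 h levels are given for description. In the authors' deposited table, which labels regions by their course, 274 of the 537 tested members labelled upEarly fell here and 41 rose, 135 of the 231 labelled upLate fell and 17 rose, 19 of the 33 labelled downEarly and 2 of the 3 labelled downLate fell, and 569 of the 56550 labelled static fell and 179 rose.

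**Figure D2:**
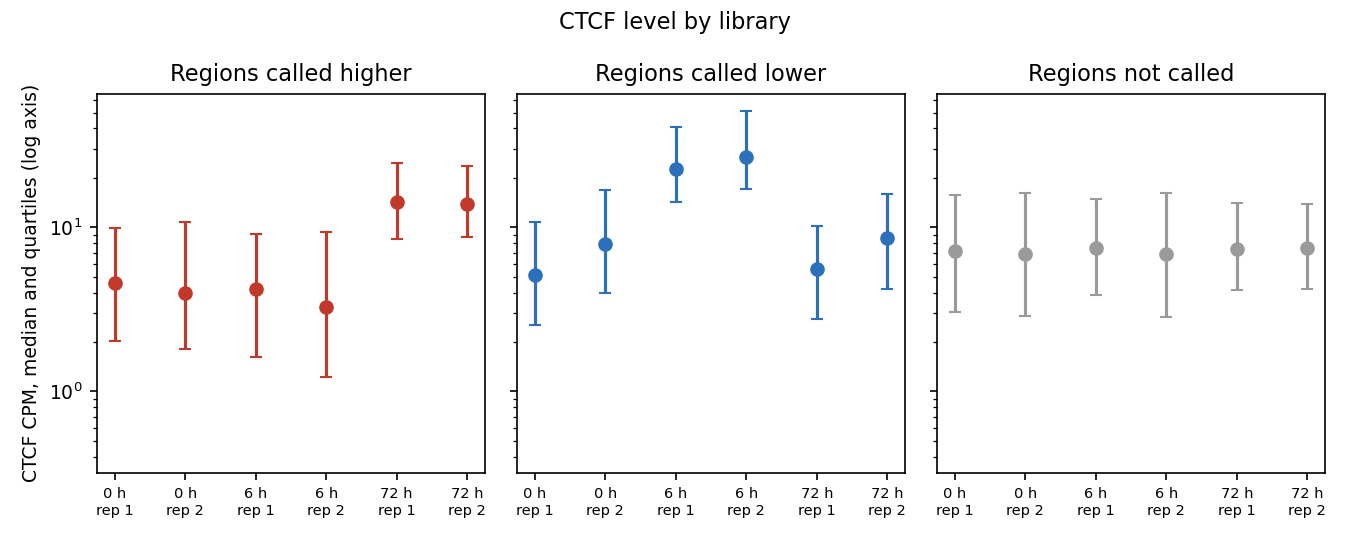
CTCF CPM in each library on a log axis for regions that rose (237), fell (999) or did not pass (56118). Points are medians over regions and bars run from the first to the third quartile. For regions that fell, the 6 h libraries had medians of 22.7 and 26.9, above those of the other 4 libraries.

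Few of the regions that fell lay at promoters. Of these regions 9 of 999 (0.901%) overlapped a promoter, against 19 of 237 that rose (8.02%) and 10.4% of all tested members. An overlap with a gene span, which includes introns, was found for 58.6% of those that fell, 67.9% of those that rose and 63.6% of all tested. Falls made up 4.06% of the tested members on chromosome X (62 of 1526), 3.93% on chromosome 4 (89 of 2265) and 0.784% on chromosome 19. Rises made up 3.90% on chromosome 21 (35 of 898), where the ribosomal RNA genes described further on lie.

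The 8 regions with the largest falls shared a shape, with both 6 h libraries above both 72 h libraries and above both at 0 h. They were chosen from called regions with a mean CPM at or above the median of members and with 6 and 72 h libraries that did not overlap. The order of 6 and 72 h was therefore set by the choice, which also favoured a high 6 h level. The largest fall was on chromosome 3 at 162055770 to 162056146, outside any gene span. It held 22.7 and 32.1 CPM at 6 h, 3.00 and 1.69 at 72 h, after 5.35 and 6.86 at 0 h, and fell by 3.59 on the log2 scale (SE 0.385, adjusted p = 0.000430). At this position the Jun counts fell by 3.91 on the log2 scale between the same times, and no Rad21 peak was present.

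Within ANKAR, which encodes an ankyrin and armadillo repeat protein, a region on chromosome 2 (189687309 to 189687674) held 22.7 and 29.7 CPM at 6 h against 2.76 and 3.65 at 72 h. It fell by 2.98 on the log2 scale (SE 0.343, adjusted p = 0.000430), with a Rad21 peak at 72 h and none at 0 h. Within GPHN, the gene of the scaffold protein gephyrin, a region on chromosome 14 (66581672 to 66581921) held 17.2 and 16.7 CPM at 6 h, 1.84 and 2.81 at 72 h, after 1.78 and 3.97 at 0 h. It fell by 2.81 on the log2 scale (SE 0.442, adjusted p = 0.00183), and Jun fell there by 4.01. At ANKAR the 0 h values were 8.41 and 6.86 CPM, so in both genes the 6 h libraries lay above the other 4, and at ANKAR the 72 h libraries also lay below those at 0 h. The region on chromosome 2 at 220717142 to 220717520, outside gene spans, held 14.6 and 23.6 CPM at 6 h against 1.84 and 3.37 at 72 h (log2 fold change −2.79, SE 0.442).

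Within LOC124909460, a region on chromosome 3 (176373337 to 176373573) held 20.4 and 22.4 CPM at 6 h against 2.30 and 3.09 at 72 h (log2 fold change −2.94, SE 0.416). On chromosome 20 at 59539456 to 59539685, with PHACTR3 as the nearest gene, the values were 16.5 and 17.5 CPM at 6 h against 2.30 and 2.53 at 72 h (log2 fold change −2.79, SE 0.440). No tested Jun region overlapped this region or those within LOC124909460, NEK1 and LOC107985960. In the remaining 2 the replicates lay far apart, at 0 h in NEK1 and at 72 h in LOC107985960. Within NEK1, which encodes a protein kinase, the region on chromosome 4 at 169504052 to 169504266 held 40 and 45 counts at 6 h, 6 and 16 at 72 h, after 2 and 25 at 0 h, so the 0 h libraries disagreed with each other. Within LOC107985960 on chromosome 2 (172301427 to 172301626) it was 46 and 48 counts at 6 h, then 1 and 28 at 72 h. Both of these calls were lost without replicate 1 at 72 h (adjusted p = 0.0595 and 0.0597) under DESeq2 (0.380 and 0.357) and with factors from common peaks (0.0918 and 0.0766), while the other 6 held under all 12 alternatives that gave them a value.

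Of the 8 regions with the largest rises, 5 did not lie at ribosomal RNA genes. The region with the highest 72 h level among these was within CAMTA1, which encodes a calmodulin-binding transcription activator, on chromosome 1 at 7538909 to 7539966. It held 12.0 and 16.3 CPM at 6 h, 77.2 and 82.9 at 72 h, after 17.3 and 14.1 at 0 h. It rose by 2.51 on the log2 scale (SE 0.280, adjusted p = 0.000430), and H3K27ac rose there by 4.38. The 72 h libraries lay far above the other 4, and the call held under all 13 alternatives.

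On chromosome 15 at 20788918 to 20789769, with LONRF2P3 as the nearest gene, the values were 6.47 and 4.88 CPM at 6 h against 25.8 and 25.3 at 72 h (log2 fold change 2.15, SE 0.354). H3K27ac rose there by 4.41 and Jun by 1.68. On chromosome 6 at 26295815 to 26296428, within LOC124901287, CTCF was 3.88 and 2.44 CPM at 6 h against 14.98 and 17.1 at 72 h (log2 fold change 2.31, SE 0.403). These 2 calls also held under every alternative that gave them a value. On chromosome 3 at 40971004 to 40971953, outside gene spans, CTCF was 5.18 and 1.63 CPM at 6 h against 16.8 and 20.5 at 72 h (log2 fold change 2.39, SE 0.486). Within PSD3, whose product activates an ARF-family GTPase, the region on chromosome 8 at 18814265 to 18814831 held 3.56 and 5.29 CPM at 6 h against 14.98 and 24.9 at 72 h (log2 fold change 2.20, SE 0.393). The calls at chromosome 3 and PSD3 were lost without replicate 2 at 72 h (adjusted p = 0.0542 and 0.135). In all 5, no 6 h library had a peak and both 72 h libraries had one.

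**Figure D3:**
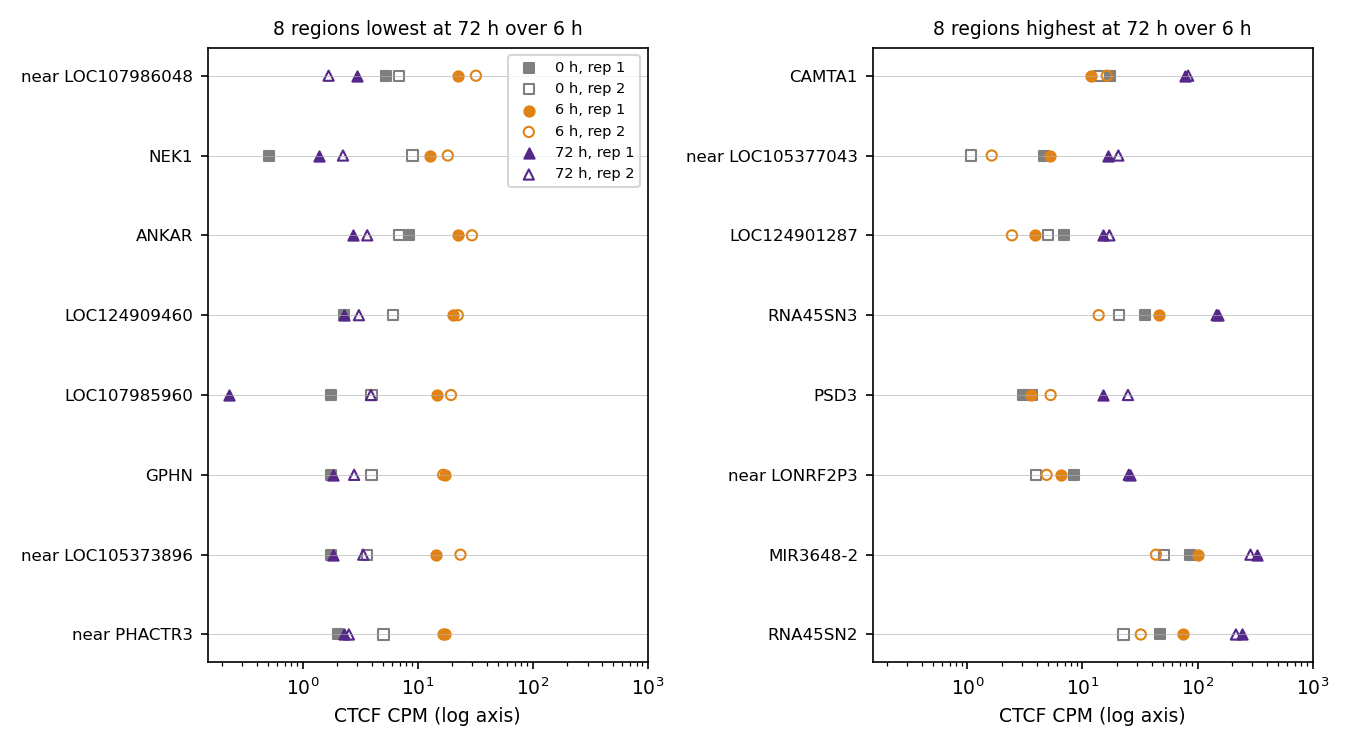
CTCF CPM on a log axis in each of the 6 libraries for the 8 regions with the largest falls (left) and the 8 with the largest rises (right), named by the gene they lie in or nearest to. Filled symbols are replicate 1 and open symbols replicate 2. In each row the 6 h circles and the 72 h triangles do not overlap, as the choice of regions required.

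The other 3 of the 8 largest rises lay on chromosome 21 at RNA45SN2, RNA45SN3 and MIR3648-2, in or beside genes of the 45S ribosomal RNA precursor, which exist in many near-identical copies. At RNA45SN3 (8395999 to 8396203) CTCF counts were 142 and 34 at 6 h, then 653 and 1044 at 72 h. Of 26 tested members that overlapped ribosomal RNA genes, 21 rose, with a median log2 fold change of 1.78. Their summed level was 5683 and 2885 CPM at 6 h, 15629 and 13482 at 72 h, after 4209 and 2750 at 0 h. Counts over nuclear copies of mitochondrial genes went the other way. Of 23 such members 10 fell, with a median of −1.75, and their summed level was 22175 and 11619 CPM at 6 h against 4516 and 4686 at 72 h. The mitochondrial chromosome itself took 25.5% ± 7.15 of counts at 6 h and 9.59% ± 0.0583 at 72 h (SD, n = 2). How the authors' counting treated reads from such copies is not given in the sources used here, and these calls are uncertain. The part of free or multi-copy DNA in them was not tested. At a mean count of at least 50, where 17742 members were tested, the calls at RNA45SN2, RNA45SN3 and MIR3648-2 were lost (adjusted p = 0.0687, 0.0667 and 0.0633). Without the members that overlapped either group of copies, 216 rose and 989 fell. Rises also lay beside the ribosomal RNA genes on chromosome 21. Of tested members there, 14 of 26 rose between 8204879 and 8260889, and 11 of 24 between 8387929 and 8440265. These calls outnumber the 21 that overlapped ribosomal RNA genes, so the 216 still hold some rises from these stretches.

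**Figure D4:**
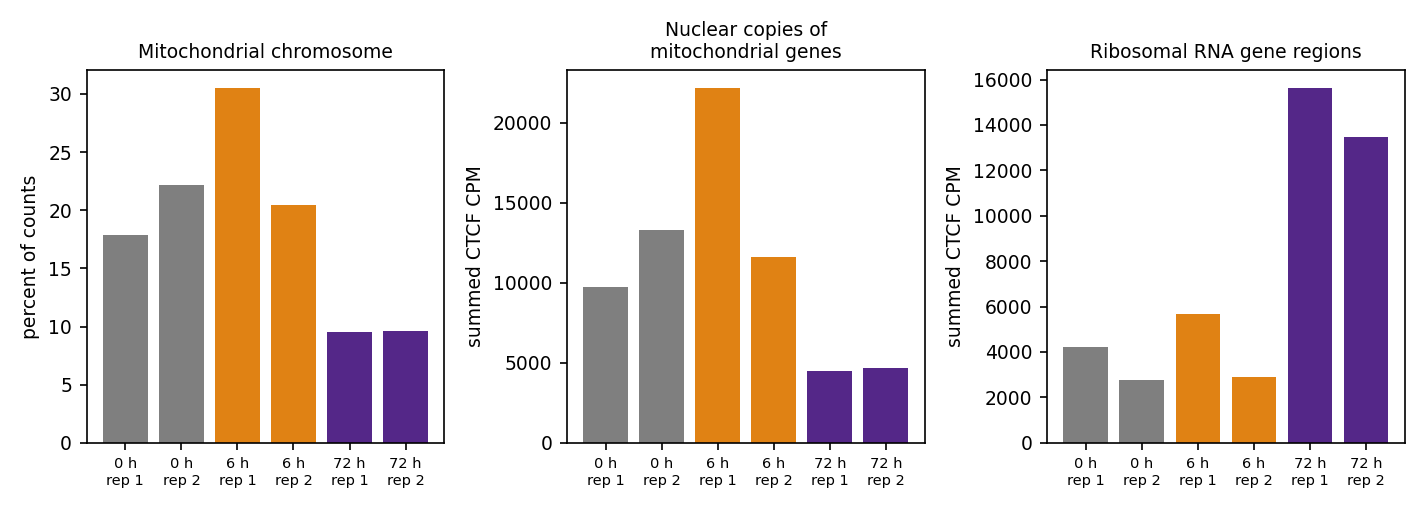
Percent of counts on the mitochondrial chromosome (left), and summed CTCF CPM over nuclear copies of mitochondrial genes (middle) and ribosomal RNA gene regions (right), in each library (1 bar per library, axes from 0). At 72 h both mitochondrial measures were lowest and the ribosomal RNA measure highest.

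The 4 members with the highest mean CPM did not pass. The region on chromosome 3 at 93470291 to 93470885, whose nearest gene lies 372878 bp away, held 59684 and 23720 counts at 6 h, then 46635 and 64308 at 72 h (log2 fold change −0.55, SE 0.943, adjusted p = 0.793). The region over MTND1P23 and MTND2P28, mitochondrial gene copies on chromosome 1 (629222 to 630034), held 6023 and 3146 CPM at 6 h against 1280 and 1291 at 72 h (log2 fold change −1.83, SE 0.655, adjusted p = 0.158). Its groups did not overlap, and at 6 h its replicates differed from each other. It was called as a fall in 4 of 13 alternatives, namely DESeq2 (adjusted p = 1.10e-06), loess offsets (0.0397) and without replicate 1 or 2 at 6 h (0.00173 and 8.56e-06). Falls at 3 or more members spaced within 50000 bp lay at 4 places. On chromosome 5, 4 of 4 tested members between 134924016 and 134927268 fell, over mitochondrial gene copies within PCBD2. On chromosome 8, 4 of 6 fell between 28467651 and 28536445, at FBXO16 and FZD3, a receptor of Wnt ligands. On chromosome 11, 3 of 4 fell between 70350800 and 70384421, at PPFIA1 and CTTN-DT. On chromosome 22, 3 of 9 fell between 20741584 and 20804582, at PI4KA and SERPIND1, the gene of a thrombin inhibitor.

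H3K27ac, which was measured in other libraries, rose at most of its regions where CTCF rose and fell at most of those where CTCF fell. Where CTCF rose, 160 tested H3K27ac regions overlapped, and their median level was 3.74 and 2.81 CPM at 6 h against 14.5 and 15.02 at 72 h. Of these 127 rose (79.4%) and 9 fell, and the median log2 fold change was 1.73. Where CTCF fell, 98 H3K27ac regions overlapped, at 2.52 and 2.07 CPM at 6 h against 1.09 and 1.13 at 72 h. Of these 60 fell (61.2%) and 9 rose, with a median of −1.28. Of the 21760 H3K27ac regions at any tested CTCF member, 28.3% rose and 35.1% fell, and in the whole H3K27ac table the shares were 33.2% and 30.7%. An H3K27ac region lay at 63.7% of the members that rose, 9.61% of those that fell and 38.8% of all tested. Without replicate 1 of CTCF at 6 h, the median at rises lay 0.39 above that of all tested in place of 1.84, over 1136 H3K27ac regions, and at falls 0.73 below in place of 1.16.

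Jun counts fell at nearly all of the regions where CTCF fell and a Jun region was tested. There were 572 such Jun regions, and their median was 10.9 and 9.31 CPM at 6 h, 1.62 and 1.27 at 72 h, after 6.78 and 7.31 at 0 h. Of these 549 fell (96.0%), with a median log2 fold change of −2.77. Where CTCF rose, the 190 Jun regions had medians of 7.49 and 7.94 CPM at 6 h against 13.3 and 13.3 at 72 h. Of these 81 rose (42.6%) and 13 fell. Of the 26234 Jun regions at any tested CTCF member, 7.84% rose and 31.9% fell, and the whole Jun table held 12.8% that rose and 13.1% that fell. The Jun value at CTCF rises depended on the library left out. Relative to all tested, the median was 1.05 higher, but 0.07 higher without replicate 1 of CTCF at 6 h (1309 Jun regions) and 0.26 higher without replicate 2 of CTCF at 72 h (48 Jun regions).

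Rad21 was profiled at 0 and 72 h only, so its state at 6 h is unknown. At 72 h a Rad21 peak of both replicates lay at 612 of the 999 members where CTCF fell (61.3%), at 99 of the 237 where it rose (41.8%) and at 22.8% of all tested. At 0 h the shares were 34.2%, 21.1% and 26.9%. A Rad21 peak at 72 h and none at 0 h was found at 311 members where CTCF fell and 56 where it rose, and the reverse at 41 and 7. Over all tested members 8.59% had a Rad21 peak at 72 h alone and 12.7% at 0 h alone. A Jun region and a 72 h Rad21 peak were both present at 514 of the 999, a Jun region alone at 58, a Rad21 peak alone at 98 and neither at 329. Over all 57354 tested members, 11636 held both. With peaks of one Rad21 library at a time, the 72 h share at falls was 64.5% and 71.3%, beside 35.8% and 28.6% of all tested.

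**Figure D5:**
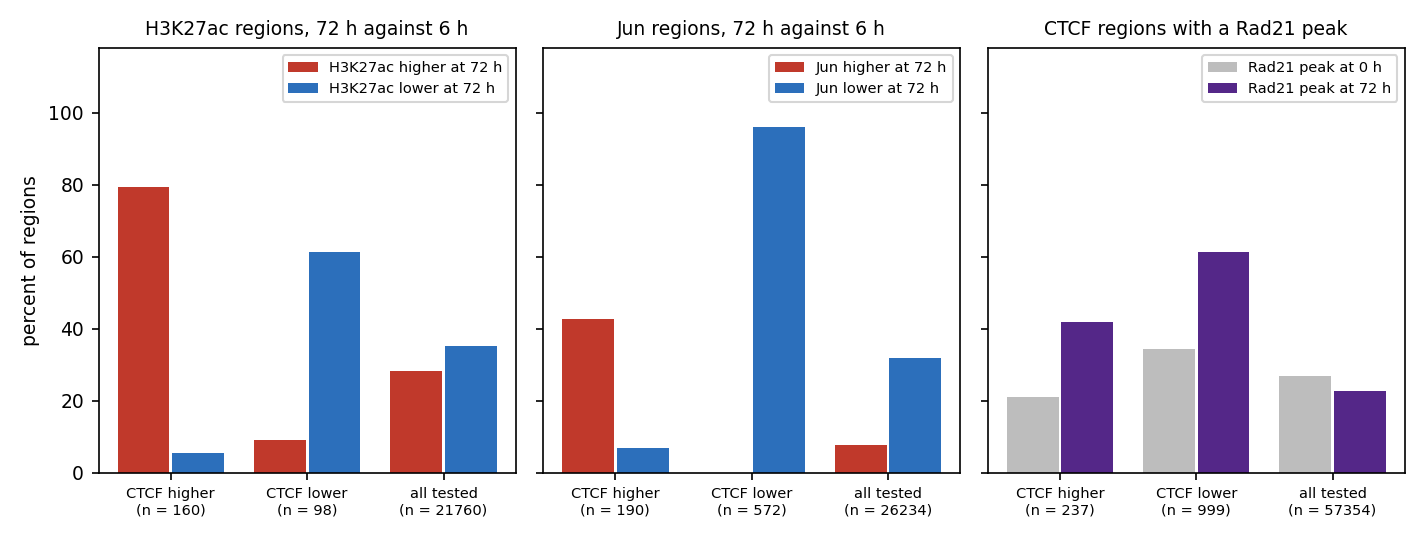
Percent of H3K27ac regions (left) and Jun regions (middle) that rose or fell at 72 h against 6 h where CTCF was higher or lower and at all tested CTCF members, and percent of CTCF members with a Rad21 peak in both replicates at 0 or 72 h (right). Jun fell at 96.0% of the Jun regions where CTCF was lower and at 31.9% of those at all tested members.

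At promoters, the regions named here were chosen after their values were seen. The CCR1 promoter, of a chemokine receptor gene, lay under a region on chromosome 3 (46208008 to 46208683) with 17.5 and 25.2 CPM at 6 h, 63.1 and 58.4 at 72 h, after 19.9 and 20.9 at 0 h. It rose by 1.52 on the log2 scale (SE 0.267, adjusted p = 0.00395), H3K27ac rose there by 1.60, and the call held under all 13 alternatives. At MET, which encodes the receptor of hepatocyte growth factor, the region on chromosome 7 (116671680 to 116672226) held 10.7 and 10.2 CPM at 6 h against 24.7 and 22.5 at 72 h (log2 fold change 1.17, SE 0.287, adjusted p = 0.0383). The MET call was lost under DESeq2 (adjusted p = 0.173) and with the 6 and 72 h libraries alone (0.0611). At TIMP1, an inhibitor of matrix metalloproteinases, it was 1.62 and 1.63 CPM at 6 h against 11.1 and 8.29 at 72 h (log2 fold change 2.54, SE 0.560, adjusted p = 0.0199). Both calls were lost without replicate 1 at 72 h (adjusted p = 0.353 and 0.297) or without replicate 2 (0.165 and 0.0591), and MET also without replicate 2 at 6 h (0.0832). At LYL1, a transcription factor gene of blood cells, CTCF was 2.91 and 2.85 CPM at 6 h against 8.99 and 12.6 at 72 h (adjusted p = 0.0463). That call was lost without any 1 of the 4 libraries (adjusted p from 0.0501 to 0.422).

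The strongest promoter region that fell was at PTPRH, a receptor tyrosine phosphatase gene on chromosome 19 (55209081 to 55209461). It held 218 and 221 CPM at 6 h, 51.1 and 83.3 at 72 h, after 33.1 and 43.3 at 0 h, and fell by 1.70 on the log2 scale (SE 0.310, adjusted p = 0.00499). Jun fell there by 3.13, and without replicate 1 at 72 h the CTCF call was lost (adjusted p = 0.292). The promoters of UQCR10 and ZMAT5 share a region on chromosome 22 with 72.5 and 57.8 CPM at 6 h against 16.1 and 33.0 at 72 h (log2 fold change −1.39, SE 0.337). In other cases the 0 h level was as high as at 6 h. At GRN, the progranulin gene, CTCF was 24.2 and 30.7 CPM at 0 h, 27.8 and 23.2 at 6 h, then 8.99 and 12.1 at 72 h (log2 fold change −1.26, SE 0.282). At G3BP1, a stress granule protein gene, it was 53.3 and 74.3 at 0 h, 51.8 and 50.04 at 6 h, then 24.2 and 24.7 at 72 h (log2 fold change −1.06, SE 0.266). At SCIRT, shown above, it was 50.8 and 60.2 CPM at 6 h against 22.8 and 28.9 at 72 h (adjusted p = 0.0368), and H3K27ac rose there by 1.59. Under total counts the calls at UQCR10, GRN, G3BP1 and SCIRT were lost (adjusted p = 0.0726, 0.129, 0.249 and 0.213). With factors from common peaks they were lost too (0.131, 0.0916, 0.116 and 0.109). With loess offsets all but GRN were lost (0.0906, 0.0916 and 0.0771). Without replicate 1 at 72 h the calls at UQCR10, GRN, G3BP1 and SCIRT were lost (adjusted p = 0.492, 0.378, 0.449 and 0.525). Without replicate 2 at 72 h those at GRN, G3BP1 and SCIRT were lost too (0.0676, 0.350 and 0.178), and SCIRT also without replicate 2 at 6 h (0.0540).

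Near the genes of 8 lists, 379 tested members lay within 10000 bp of a gene, and 4 rose and 6 fell. Of 39 members at erythroid genes 2 fell, of 77 at megakaryocyte genes 2 rose and 1 fell, of 59 at early PMA response genes 1 rose, and of 59 at genes of the loop machinery 2 fell. At HOX clusters 1 of 29 rose and 1 fell. None of the 34 members at imprinted genes, the 36 at cell cycle genes or the 46 in the protocadherin clusters passed edgeR's quasi-likelihood test, while 4, 4 and 2 of them had an unadjusted p under 0.05. These shares stand beside 0.413% rises and 1.74% falls among all tested members. Median log2 fold changes were 0.50 for megakaryocyte, 0.21 for early response, 0.13 for cell cycle, 0.04 for erythroid and imprinted, −0.03 for protocadherin, −0.07 for HOX and −0.15 for loop machinery members, against 0.00 for all. With loess offsets the megakaryocyte median was 0.28.

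At ALAS2, which encodes the first enzyme of heme synthesis in red cell precursors, a region on chromosome X (55025803 to 55026182) held 202 and 233 CPM at 6 h, 46.3 and 98.6 at 72 h, after 44.6 and 70.4 at 0 h. It fell by 1.58 on the log2 scale (SE 0.354, adjusted p = 0.0226), and Jun fell there by 3.02 and H3K27ac by 1.31. With factors from common peaks the CTCF call was lost (adjusted p = 0.0880). Relative to their mean, the 72 h replicates lay further apart than those at 0 h, and without replicate 1 at 72 h the adjusted p was 0.506. Near GYPB, the gene of the red cell protein glycophorin B, a region on chromosome 4 held 16.2 and 19.9 CPM at 6 h against 5.07 and 8.99 at 72 h (log2 fold change −1.31, SE 0.320, adjusted p = 0.0374), a call lost without replicate 1 at 72 h (0.485) or replicate 2 at 6 h (0.109). Under total counts, loess offsets and factors from common peaks the GYPB call was also lost (adjusted p = 0.119, 0.0622 and 0.114). At LMO2, an erythroid cofactor gene, 39.5 and 40.7 CPM at 6 h against 24.9 and 27.3 at 72 h did not pass (log2 fold change −0.62, SE 0.248).

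At ITGB3, the gene of the integrin beta subunit of the platelet fibrinogen receptor, a region within the gene on chromosome 17 (47266005 to 47266295) held 3 and 1 counts at 6 h, then 32 and 57 at 72 h. The ratio of 72 h to 6 h was 10.8, with a 95% exact binomial interval of 4.06 to 40.4 that covers counting error only, and the adjusted p was 0.0205. A second region near ITGB3, within EFCAB13-DT (47315421 to 47316132), held 32.7 and 35.4 CPM at 6 h, 17.5 and 14.9 at 72 h, after 52.5 and 54.8 at 0 h. It fell by 1.08 on the log2 scale (SE 0.259, adjusted p = 0.0343). Under total counts, loess offsets and factors from common peaks this call was lost (adjusted p = 0.233, 0.0692 and 0.0964). It was also lost under DESeq2 (0.0626) and with the 6 and 72 h libraries alone (0.0665). At FLI1, an ETS transcription factor gene of megakaryocytes, a region on chromosome 11 (128776457 to 128777430) held 8.09 and 10.98 CPM at 6 h against 24.7 and 19.1 at 72 h (log2 fold change 1.20, SE 0.306, adjusted p = 0.0466). The FLI1 call was lost under DESeq2 (adjusted p = 0.173) and with the 6 and 72 h libraries alone (0.0770). The ITGB3, EFCAB13-DT and FLI1 calls were each lost without replicate 1 at 72 h (adjusted p = 0.108, 0.289 and 0.455) or without replicate 2 (0.133, 0.426 and 0.0841). EFCAB13-DT was also lost without replicate 2 at 6 h (0.0501) and FLI1 without replicate 1 at 6 h (0.0952). The strongest members near megakaryocyte genes, at GP1BB (73.8 and 111 CPM at 6 h, 83.9 and 69.7 at 72 h) and FLNA (62.2 and 85.4, then 45.6 and 51.8), did not pass, though FLNA was called as a fall without replicate 1 at 6 h (adjusted p = 0.0427).

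The CTCF gene itself and PDS5A, whose product regulates cohesin, each held a region that fell. In CTCF (chromosome 16, 67639013 to 67639393) it was 12.9 and 15.1 CPM at 6 h, 2.53 and 4.07 at 72 h, after 4.84 and 3.61 at 0 h (log2 fold change −2.03, SE 0.415, adjusted p = 0.0117). In PDS5A (chromosome 4, 39965511 to 39965891) it was 13.3 and 14.6 at 6 h, 2.07 and 4.07 at 72 h, after 3.82 and 5.41 at 0 h (log2 fold change −2.11, SE 0.430, adjusted p = 0.0113). Both held a Rad21 peak at 72 h and none at 0 h, Jun fell by 2.24 in CTCF and fell by 2.73 in PDS5A, and both CTCF calls were lost without replicate 1 at 72 h (adjusted p = 0.176 and 0.174) and with factors from common peaks (0.0652 and 0.0643). The strongest regions of these genes did not pass, with 48.9 and 55.7 CPM at 6 h against 43.5 and 40.0 at 72 h in CTCF, and 42.4 and 40.7, then 39.6 and 36.8, in PDS5A.

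Near JUNB, an AP-1 gene, a region within the neighbouring gene HOOK2 on chromosome 19 (12789946 to 12790294) held 3 and 3 counts at 6 h, then 31 and 66 at 72 h. The ratio was 7.83 (95% exact binomial interval 3.47 to 21.9, counting error only; adjusted p = 0.0192), and the call was lost without replicate 1 (0.0966) or replicate 2 (0.248) at 72 h. The strongest early response members, near FOSB (69.6 and 83.4 CPM at 6 h, 74.2 and 83.6 at 72 h) and EGR1 (60.9 and 60.6, then 47.2 and 56.5), did not pass. In the HOXA cluster, whose genes set positional identity, a region within HOXA3 on chromosome 7 (27135996 to 27136767) held 11.3 and 16.3 CPM at 6 h, 37.3 and 34.6 at 72 h, after 18.6 and 12.3 at 0 h. It rose by 1.39 on the log2 scale (SE 0.289, adjusted p = 0.0130), a call lost without replicate 1 at 72 h (0.113). In the HOXB cluster a region within HOXB-AS3 held 11.7 and 17.9 CPM at 6 h against 4.84 and 5.90 at 72 h (log2 fold change −1.42, SE 0.339, adjusted p = 0.0325), a call lost without replicate 1 (0.308) or replicate 2 (0.120) at 72 h or replicate 2 at 6 h (0.176). Under total counts and factors from common peaks the HOXB-AS3 call was also lost (adjusted p = 0.0890 and 0.0950). The 2 strongest members at HOX clusters, on chromosome 2 at 176079501 and 176126933, did not pass (log2 fold change 0.75 and −0.25). The member at 176079501 was called as a rise under total counts (adjusted p = 0.0371), loess offsets (0.0372) and factors from common peaks (0.0486). The strongest members at the IGF2 gene (68.6 and 111 CPM at 6 h, 63.1 and 56.1 at 72 h), near CCND3 (31.7 and 40.7, then 26.7 and 26.97) and in the protocadherin gamma cluster (26.9 and 26.4, then 19.4 and 28.8) did not pass. Without replicate 1 at 6 h the IGF2 member was called as a fall (adjusted p = 0.0228).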

How the data were processed

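The CTCF table held the authors' raw counts per region and library, as deposited, and a label per region (deposited by the authors). The peak lists, 1 per library, held the authors' −log10 q-value per peak. Per the submitters' processing notes, Trim Galore 0.4.3, BWA 0.7.17, SAMtools 1.9, deepTools 3.0.1, MACS2 and bedtools 2.26 were used, with builds hg19 and hg38 and no stated roles. Contigs are named as in hg38. Region starts are printed counted from 1. How regions were built is not given in the sources used here.

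Counts of all 6 CTCF libraries were fitted with edgeR 4.0.16 (R 4.3.3): filterByExpr by time, TMM, quasi-likelihood test of 72 against 6 h, Benjamini-Hochberg over all 58156 regions tested. 7992 members were not tested. The script was tested on simulated data. H3K27ac and Jun counts were fitted the same way. Peaks were called per library, and peaks of both replicates overlapped by at least 1 bp (GenomicRanges 1.54.1). CPM used TMM factors. The SE is the log2 fold change over the square root of F. Replicate numbers did not pair the libraries (correlations of deviations 0.120, 0.0773 and 0.0965 between times). Named regions were the 4 strongest members and the 8 largest rises and falls among called members. Those called members lay at or above the median CPM and had 6 and 72 h libraries that did not overlap. Near listed genes, every called member within 10000 bp was named, so these were chosen for passing the test. Up to 2 of the strongest members of a list were named as well. The members and lists were chosen with earlier results of these data known. Gene spans, without strand or exons, came from RefSeq on GRCh38.p14. Region sequences outside promoters were not used here.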

Additional observations from a re-analysis of the deposited data

How the results depend on the processing

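With the replicate number as a block, 2182 members were called, 25.4% of them higher, and 1233 of the 1236 calls were kept. Calls numbered 4931 under total counts scaling (81.4% higher, median log2 fold change 0.42), 689 with factors from common peaks (40.3%, 0.28), 793 under DESeq2 1.42.0 (11.3%) and 230 at a mean count of at least 50 (25.2%), where 781 were 2-fold. The share higher was 23.4% with no filter, 14.7% with the 6 and 72 h libraries alone and 21.5% on chromosomes 1 to 22 and X alone. Leaving out each 6 or 72 h CTCF library gave 277 to 3750 calls, 6.98% to 40.9% higher, medians of −0.0085 to 0.0815 and 12493 to 20079 2-fold members. Listed-gene calls, 10 in all, were 37 under total counts, 5 with common peak factors, 6 under DESeq2, 2 at a mean count of at least 50, 5 with the 6 and 72 h libraries alone and 0 to 21 without one library. Shared peaks were 84.0% of 6 h and 52.9% of 72 h peaks at −log10 q of at least 10, 84.5% and 47.5% at 50% overlap, and 68.8% to 97.7% and 36.5% to 75.8% without one library. Rad21 shares at −log10 q of at least 10 for falls and rises were 52.4% and 21.5% at 72 h, with 23.8% and 10.5% at 0 h. Relative to all tested, H3K27ac medians under total counts were 0.67 at rises and −1.52 at falls, and −0.73 at falls within 1000 bp; without one library they were 0.39 to 2.33 and −1.84 to −0.73. Jun medians at rises were 0.42 under total counts, 0.99 within 1000 bp and 0.0742 to 1.09 without one library; at falls they were −2.53 to −1.97. Without one Rad21 library the shares were 61.3% to 71.3% (falls) and 41.8% to 55.7% (rises) at 72 h, and 34.2% to 47.6% and 21.1% to 29.5% at 0 h. The causes were not tested. The 73 named regions kept their direction wherever the result or the alternative was called, and of 916 comparisons 191 lost a call and 10 gained one. Outliers were not sought, since groups held 2 libraries.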
